A study of Mus musculus with 6 samples.

Results

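The genes described here are 10 components of the MHC class I pathway: the heavy chains H2-K1 and H2-D1, their light chain B2m, the peptide transporter genes Tap1 and Tap2, the loading factor Tapbp, the immunoproteasome genes Psmb8, Psmb9 and Psmb10, and the regulator Nlrc5. They were measured in a mouse pre-B cell line with raised or sequestered miR-26. Every array probe whose gene name is one of these symbols was taken, which gave 13 probes for the 10 genes, of 55681 probes and 34797 gene names on the array. H2-K1, Psmb9 and Nlrc5 have 2 probes each and the other genes have 1, and each probe is described on its own.

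The study asked what miR-26 does in early B cells, and its arrays measured total RNA of the 1676 pre-B cell line. This line has the genotype SLP-65-/- LAT-/- in all groups, so both adaptor proteins are missing in the controls too, and all cells were kept in IL-7. The groups are cells with an empty control vector, cells overexpressing miR-26a from a human hsa-miR-26a-2 construct, and cells expressing a sponge that sequesters miR-26 family members, with 2 arrays each (6 in all). All constructs were retroviral and transduced cells were selected with puromycin. The sponge was compared with the empty vector, since no scrambled sponge was hybridized. The replicate number of the labels was taken to mark the experiment, so each experiment holds 1 array of each group. The arrays do not measure the mature miR-26 itself, so how far the miRNA was raised or sequestered is not shown by these data. The methods call the 2 arrays of a group biological replicates of this 1 cell line. Their small number limits the precision of every value.

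All nucleated cells show pieces of their own proteins to T cells on MHC class I molecules, which consist of a polymorphic heavy chain, the invariant light chain B2m and a peptide. The proteasome cuts proteins into peptides, the TAP transporter (Tap1 with Tap2) carries them into the endoplasmic reticulum, and tapasin (Tapbp) holds an empty class I molecule at the transporter until a peptide fits. The immunoproteasome subunits Psmb8, Psmb9 and Psmb10 replace constitutive subunits and are common in lymphoid cells, and Nlrc5 is a transactivator that works at class I promoters. A miRNA acts on transcripts that pair with its seed, bases 2 to 8, and the mature miR-26 family members share this seed. Their RefSeq sequences (GRCm38.p6) are shown with the seed in capitals, since it defines the words that were sought in the probes.
mmu-miR-26a-5p: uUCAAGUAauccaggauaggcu
mmu-miR-26b-5p: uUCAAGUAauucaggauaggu
The word that pairs with this seed (TACTTGA) and the word ACTTGAA, which overlaps it by 6 letters, were in 0 of the 13 probe sequences. Across the array, 0.955% of all 55681 probes hold either word. A probe covers 60 bases of a transcript, so this says only that the words are not in these stretches.

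Of the 59305 spots of an array, 28823 to 29800 were well above background and none was saturated. The signal of a probe is given as quantile-normalized log2 intensity, and a change is a difference between groups on this scale. Every array gave each of the 13 probes a signal well above background, and all 13 passed the filter for testing, which kept 20168 probes in all. A probe was called when limma's p, from a fit with the experiment as a block and after Benjamini-Hochberg adjustment across the tested probes, was under 0.05. The pre-B label was checked against markers, and all 13 listed pre-B genes, among them Cd79a, Igll1, Vpreb1 and Pax5, had such a signal on each of the 6 arrays. Of the markers of other cells, 5 of 15 myeloid, 4 of 8 T and NK, 1 of 7 stromal, 1 of 4 erythroid and 2 of 5 dendritic genes had one on each array. In the same order 4, 3, 6, 2 and 3 had one on no array, among them Cd14, Cd3g, Col1a1 and Itgax. Each gene was judged by its probe with the highest signal on control array 1. Cd8a, one of the 3 T and NK genes, had another probe (A_52_P443334) well above background on 1 array. Some markers of other cells were bright. Myeloid Csf3r had a log2 signal of 15.65 to 16.06 and dendritic Siglech 15.58 to 15.92 at A_55_P2141013. Another Siglech probe, A_55_P2165790, was well above background on no array. In RNA of a whole culture, fewer cells with a transcript and less of it per cell cannot be told apart.

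Tap1 was lower with miR-26a and was the only 1 of the 13 probes to be called. With the control vector its log2 signal was 10.73 and 11.02 in experiments 1 and 2, with miR-26a 10.40 and 10.74, and with the sponge 10.45 and 10.72. Within each experiment the control array was the highest of the 3, while the miR-26a array of experiment 2 lay just above the control array of experiment 1. Against control the change with miR-26a was -0.31 (SE 0.067, 95% interval -0.47 to -0.14, limma adjusted p = 0.0491, n = 2 arrays a group), a level of 0.809 of the control. It was -0.33 within experiment 1 and -0.28 within experiment 2. With the sponge the change was -0.29 (SE 0.067, adjusted p = 0.222), which was not called, with -0.27 and -0.30 in the experiments. The 2 constructs were set against each other directly, and there Tap1 differed by -0.02 with a 95% interval from -0.19 to 0.15. The probe is printed in 10 spots per array, whose log2 signals had an SD of 0.035 to 0.058 within an array.

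The Tap1 call lay close to the threshold. Without the experiment as a block its adjusted p was 0.439 at the same change of -0.31, and it was also not called after 75th percentile scaling (-0.27), under the 3 other filters (with no filter, none of 55681 probes was called), or when any of the 6 arrays was left out (changes of -0.34 to -0.27). It was called with normexp background correction, the authors' values and array weights, and its adjusted p ran from 0.0302 to 0.646 over all alternatives of the limma fit and the 2 other tests. The probe lies at chr17:34330854-34330913 of mm9, as the array design gives it. Tap1 and Psmb9 stand back to back on chromosome 17, and the 225 bases between their starts are shown because Tap1 was called and Psmb9 was not (a difference between them was not tested). They lie at chr17:34187331-34187555 of GRCm38.p6, plus strand, as RefSeq gives them, with the CCAAT word in capitals.
Between Psmb9 and Tap1: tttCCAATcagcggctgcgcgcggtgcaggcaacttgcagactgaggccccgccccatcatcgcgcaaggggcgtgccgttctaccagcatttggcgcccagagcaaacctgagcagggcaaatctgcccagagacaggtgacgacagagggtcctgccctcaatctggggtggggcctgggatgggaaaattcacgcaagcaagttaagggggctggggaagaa
The CCAAT word, searched on both strands, is in the 250 bases before the start of 33.8% of all 32851 RefSeq promoter entries. In this stretch it lies 8 bases before the Psmb9 start and 222 before that of Tap1.

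**Figure D1:**
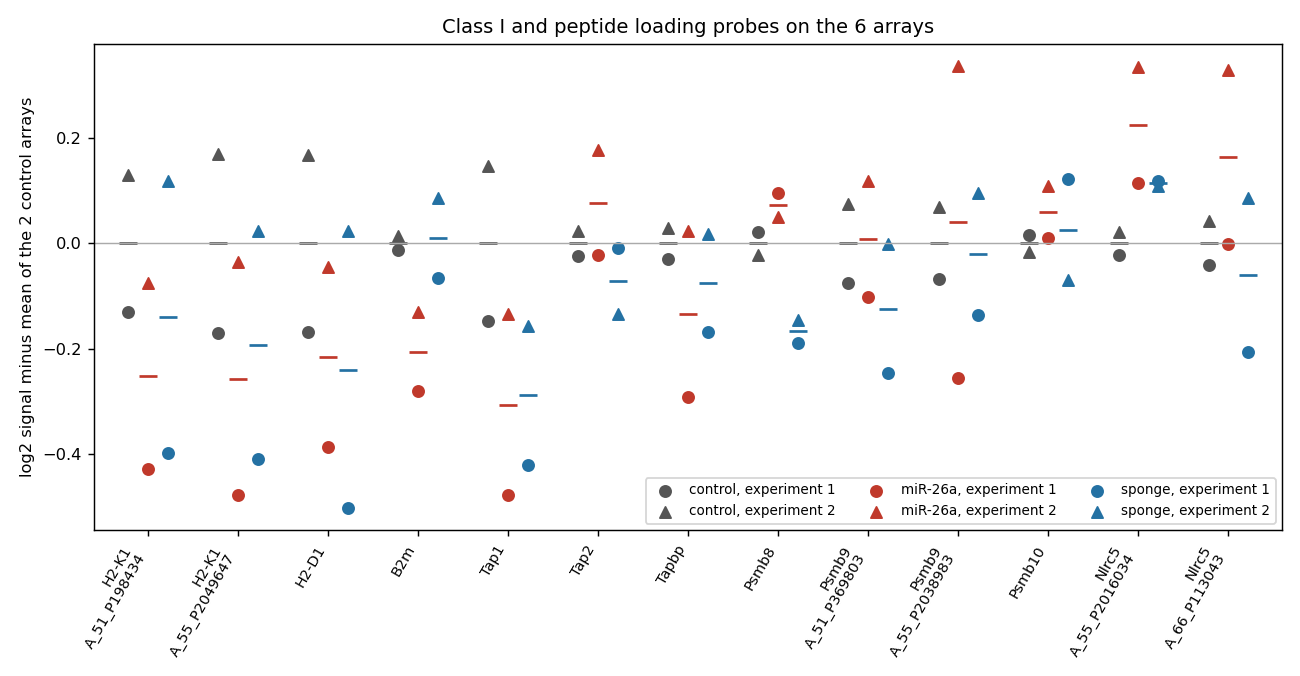
log2 signal of each of the 13 probes on each of the 6 arrays, minus the mean of the 2 control arrays of that probe; circles are experiment 1, triangles experiment 2 and short lines group means. For Tap1, H2-K1 and H2-D1 the triangles lie above the circles in every group, and the control array lies above the others of its experiment.

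The heavy chains carry the polymorphic groove that holds the peptide. H2-K1 had values below the control with miR-26a at both of its probes, and neither passed the threshold. At probe A_51_P198434 its log2 signal was 15.07 and 15.32 with the control vector, 14.77 and 15.12 with miR-26a, and 14.80 and 15.31 with the sponge. At probe A_55_P2049647 H2-K1 had 13.96 and 14.29, 13.65 and 14.09, and 13.72 and 14.15 in the same order. At each probe the groups overlapped across the experiments, while in each experiment both constructs lay below the control. The changes with miR-26a were -0.25 (SE 0.085, adjusted p = 0.131) and -0.26 (SE 0.070, adjusted p = 0.0802). With the sponge H2-K1 had -0.14 (SE 0.085, adjusted p = 0.459) and -0.19 (SE 0.070, adjusted p = 0.286). In experiment 2 the sponge array lay only 0.01 below the control at the first H2-K1 probe, against 0.27 in experiment 1.

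H2-D1, the other classical heavy chain measured, had log2 signals of 14.97 and 15.30 with the control vector, 14.75 and 15.09 with miR-26a, and 14.63 and 15.16 with the sponge. Its values also overlapped between groups and were below the control within each experiment. The change was -0.22 with miR-26a (SE 0.080, adjusted p = 0.156) and -0.24 with the sponge (SE 0.080, adjusted p = 0.268). Between the constructs H2-D1 differed by 0.02, with a 95% interval from -0.17 to 0.22.

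H2-K1 and H2-D1 share long stretches of sequence, and so do their promoters. The values of the pair ran in parallel over the arrays, which includes their difference between the experiments. A link of these values to the promoters was not tested. The longest run that the 250 bases before their RefSeq starts have in common is 47 bases. It is shown in capitals with 20 bases on either side. It lies 141 to 95 bases before the H2-K1 start (87 bases printed, chr17:34000422-34000508, minus strand, GRCm38.p6) and 201 to 155 bases before the H2-D1 start (chr17:35262873-35262959, plus strand). The H2-K1 distances are those of the entry with the window chr17:34000298-34000597. RefSeq has another H2-K1 entry with a different start (window chr17:34000284-34000583), from which they differ.
H2-K1: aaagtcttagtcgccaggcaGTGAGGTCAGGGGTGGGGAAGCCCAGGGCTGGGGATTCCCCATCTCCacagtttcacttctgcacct
H2-D1: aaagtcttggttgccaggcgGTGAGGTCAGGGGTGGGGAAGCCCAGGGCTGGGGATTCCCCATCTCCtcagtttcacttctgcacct
The interferon element was searched for only as the pattern GAAANNGAA, on both strands. This pattern is not in the 250 bases before the start of H2-K1, H2-D1, Tap1, Tapbp, Psmb8, Psmb9 or Psmb10. Tap2 and Nlrc5 had no entry in the promoter table. The pattern fixes the order of its parts, and the other order (GAA first, then GAAA) was not searched for. Both stretches printed above hold that order on the other strand, within cagtttcacttct after the capitals. Absence of the pattern therefore does not show that the heavy chains lack an interferon element. The pattern is in 7.13% of all promoter entries. Among the 8 members with an entry it was in that of B2m, 139 bases before the start, in capitals here (chr2:122147503-122147602, plus strand, GRCm38.p6).
B2m: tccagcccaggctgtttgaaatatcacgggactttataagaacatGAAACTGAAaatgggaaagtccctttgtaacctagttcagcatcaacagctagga

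B2m, the light chain that every classical class I molecule needs, had values below the control with miR-26a and near the control with the sponge. Its log2 signal was 15.77 and 15.80 with the control vector, 15.50 and 15.66 with miR-26a, and 15.72 and 15.87 with the sponge. Both miR-26a arrays lay below all other arrays, and control and sponge arrays overlapped. Of all tested probes, 22.6% lay wholly below the control with miR-26a and 23.1% wholly below the sponge. The change with miR-26a was -0.21 (SE 0.072, adjusted p = 0.141) and that with the sponge 0.01 (95% interval -0.17 to 0.19). Set against each other, miR-26a minus sponge was -0.22 for B2m in each experiment alike (adjusted p = 0.0972), which did not pass the threshold.

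Tap2, the partner of Tap1 in the transporter, had no clear difference. Its log2 signal was 13.34 and 13.38 with the control vector, 13.34 and 13.54 with miR-26a, and 13.35 and 13.23 with the sponge. The groups overlapped and the experiments disagreed. The change of Tap2 was 0.08 with miR-26a (95% interval -0.16 to 0.31) and -0.07 with the sponge (-0.31 to 0.16). Tapbp, the tapasin gene, had 11.57 and 11.63, 11.31 and 11.62, and 11.43 and 11.62. Its difference from the control lay in experiment 1, where it was -0.26 with miR-26a and -0.14 with the sponge, while in experiment 2 both were -0.01. Over both experiments the Tapbp change was -0.13 with miR-26a (adjusted p = 0.373) and -0.08 with the sponge (adjusted p = 0.683).

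The immunoproteasome subunits had values close to the control with miR-26a. Psmb8 (LMP7) had log2 signals of 14.39 and 14.34 with the control vector, 14.46 and 14.41 with miR-26a, and 14.18 and 14.22 with the sponge. These groups did not overlap, with the sponge lowest and miR-26a highest, but the steps were small. Each such gap was common among all tested probes. With miR-26a 26.9% of them lay wholly above the control and 27.9% wholly above the sponge. With the sponge 20.01% lay wholly below the control. The Psmb8 change was 0.07 with miR-26a (SE 0.069, adjusted p = 0.562) and -0.17 with the sponge (SE 0.069, adjusted p = 0.320). Between the constructs Psmb8 was 0.24 higher with miR-26a (SE 0.069, 95% interval 0.07 to 0.41, adjusted p = 0.0698), with 0.28 and 0.19 in the experiments.

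Psmb9 (LMP2), the neighbour of Tap1, had 14.38 and 14.53, 14.35 and 14.57, and 14.21 and 14.45 at its bright probe A_51_P369803. The groups overlapped, and the Psmb9 change was 0.01 with miR-26a (95% interval -0.16 to 0.18) and -0.12 with the sponge (-0.29 to 0.05). Its other probe, A_55_P2038983, was designed on another transcript record and was dim, at 5.67 to 6.26, and its changes were 0.04 with miR-26a (95% interval -0.26 to 0.34) and -0.02 with the sponge (-0.32 to 0.28). Psmb10 (MECL-1) had log2 signals of 14.75 and 14.72, 14.75 and 14.85, and 14.86 and 14.67. Its groups overlapped, with changes of 0.06 with miR-26a (95% interval -0.16 to 0.28) and 0.03 with the sponge (-0.20 to 0.25). With miR-26a the intervals of Psmb10 and both Psmb9 probes overlap that of Tap1 (-0.47 to -0.14), while that of Psmb8 (-0.10 to 0.24) lies above it. A difference from Tap1 was not tested.

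Nlrc5, the transactivator, had its values above the control at both probes with miR-26a. At A_55_P2016034 the log2 signal was 11.37 and 11.41 with the control vector, 11.50 and 11.72 with miR-26a, and 11.51 and 11.50 with the sponge, so both constructs lay above both control arrays. Of all tested probes, 26.9% lay wholly above the control with miR-26a and 17.9% with the sponge. The Nlrc5 change at A_55_P2016034 was 0.22 with miR-26a (SE 0.083, adjusted p = 0.156) and 0.11 with the sponge (SE 0.083, adjusted p = 0.530). At A_66_P113043 it had 7.19 and 7.28, 7.23 and 7.56, and 7.03 and 7.32, with overlapping groups. The change of Nlrc5 at this probe was 0.16 with miR-26a (adjusted p = 0.293) and -0.06 with the sponge (adjusted p = 0.752).

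Counted over the 13 probes, miR-26a against control gave 1 lower (Tap1) and 0 higher, where 5.12% of all 20168 tested probes were called lower and 4.6% higher. At an unadjusted limma p under 0.05, 5 of the 13 were lower and 1 was higher, against 12.8% and 14.5% of all probes. The 5 are Tap1, both H2-K1 probes, H2-D1 and B2m, and the 1 is Nlrc5 A_55_P2016034. The median change of the 13 probes was 0.01, as it was over all probes (0.01), so the values below and above the control lay in different members. In the sponge comparison, limma called 0 of the 13 in either direction, with 0% of all probes called lower and 0.00992% higher. At an unadjusted p under 0.05, 3 were lower (Tap1, H2-D1 and 1 probe of H2-K1) and 0 higher, against 8.33% and 7.65% of all probes, and the median was -0.08 against 0.01. Setting miR-26a directly against the sponge called 0 of the 13 lower and 0 higher, where 8.55% and 8.22% of all probes were called. There 1 was lower (B2m) and 2 higher (Psmb8 and Nlrc5 A_66_P113043) at an unadjusted p under 0.05, against 15.9% and 18.5% of all probes. The comparisons with control share the same 2 control arrays, so they are not independent of each other.

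**Figure D2:**
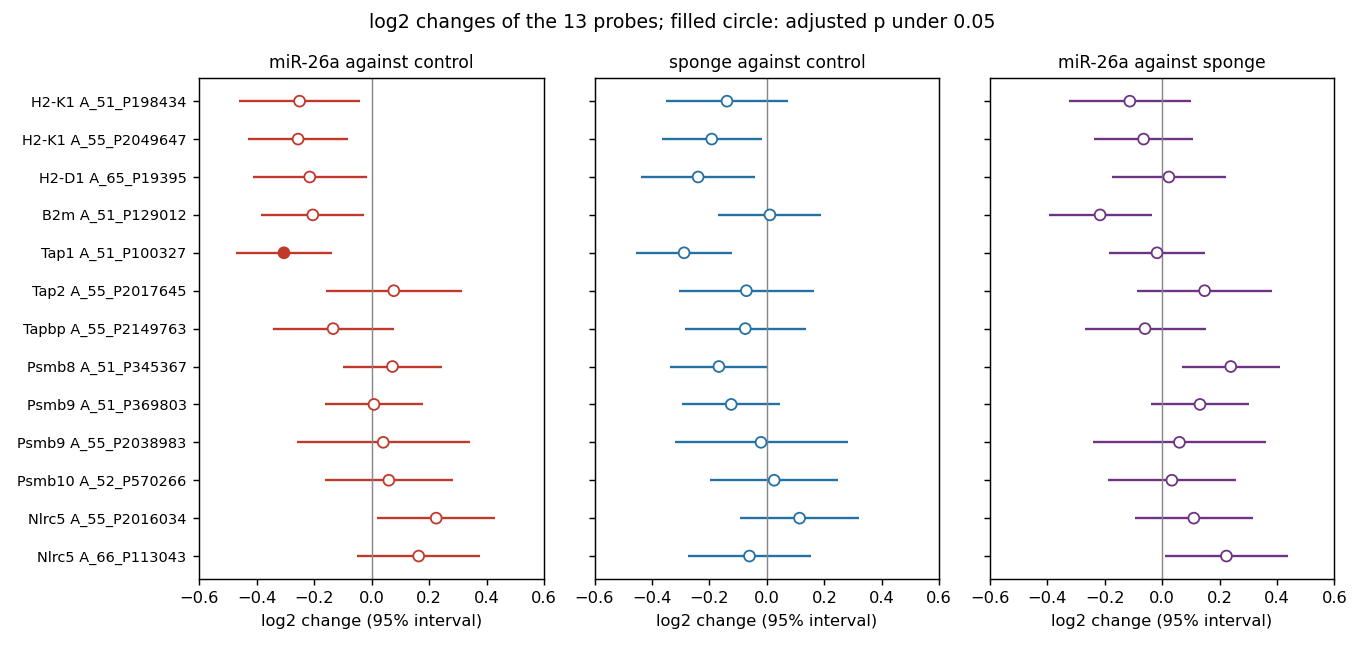
log2 change of each of the 13 probes in 3 comparisons, with the 95% interval of the limma fit as a line; filled circles have an adjusted p under 0.05. Tap1 with miR-26a, at -0.31, is the only filled circle, and in the direct comparison B2m at -0.22, Psmb8 at 0.24 and Nlrc5 A_66_P113043 at 0.22 have intervals that do not reach 0.

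Tap1 and the heavy chains also differed between the experiments, by as much as between the groups. In the control cells experiment 2 was above experiment 1 by 0.29 for Tap1, 0.26 and 0.34 for H2-K1 and 0.34 for H2-D1. Over all 3 groups these 4 probes had differences from 0.26 to 0.52. They were the only 4 of the 13 with a difference above 0.2 in every group, where 3.97% of all tested probes had one. For Psmb8 the experiments differed by 0.05 at most. The arrays of an experiment also sit in the same row of the slide, so experiment and slide position cannot be told apart. The Tap1 call is lost in the fit that takes the experiments as plain replicates. With miR-26a that fit called 238 of all 20168 probes lower and 74 higher, against 1033 and 927 with the block.

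**Figure D3:**
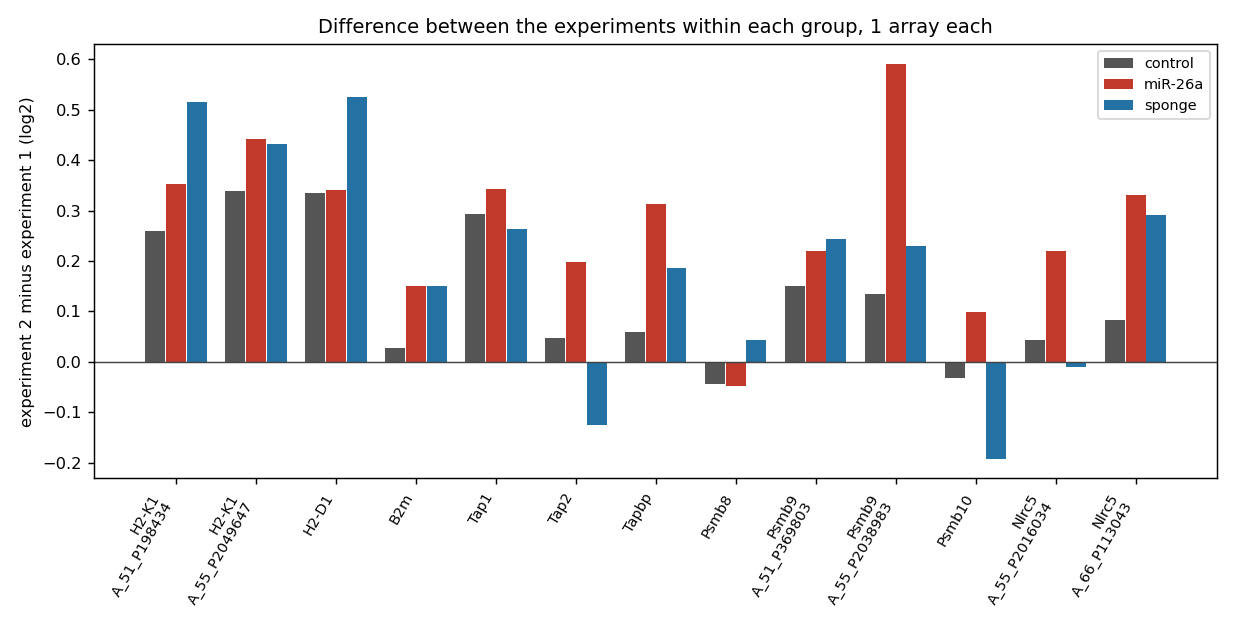
log2 signal of the experiment 2 array minus that of the experiment 1 array (y axis) for each of the 13 probes, 1 bar per group. The bars of Tap1, both H2-K1 probes and H2-D1 lie between 0.26 and 0.52 in all 3 groups, while those of Psmb8 stay within 0.05 of 0.

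Described over the 6 arrays, Tap1 and the heavy chains had similar profiles. The 2 H2-K1 probes correlated at r = 0.98 with each other and at 0.96 and 0.97 with H2-D1, and Tap1 correlated with these 3 probes at 0.90 to 0.95. Tapbp had r = 0.87 with Tap1. These arrays share 2 experiments, which differ for these same probes, so the values describe that difference together with the groups. The probes most like Tap1 over the 6 arrays, among 15967 probes with a gene name, were those of Snx15 (r = 0.99), Rltpr (0.99) and Dbp (0.99). In all, 227 of them (1.42%) had an r of 0.9 or more with Tap1.

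The genes around the 10 members were taken from lists. The largest group is that of the other class I and class I-like genes, with 28 genes, of which 18 were tested with 21 probes. With miR-26a 3 of the 21 were called lower and 1 higher (background 5.12% and 4.6%), and their median was -0.27 against 0.01 over all probes. H2-Q8, a nonclassical class I gene of the Qa region, fell from 10.43 and 10.61 to 9.31 and 9.86, a change of -0.93 (SE 0.121, adjusted p = 0.0132). H2-M3, which presents formylated peptides, fell by 0.43 (SE 0.085, adjusted p = 0.0382) and H2-Q10 by 0.36 (SE 0.079, adjusted p = 0.0484). Hfe, a class I-like regulator of iron uptake, rose by 0.59 (SE 0.091, adjusted p = 0.0203), from 6.23 and 5.89 to 6.88 and 6.43. The Hfe probe was dim, with processed signals of 58.6 to 115 over the 6 arrays, near the limit of 50 for testing. With the sponge none of the 21 was called, and the largest changes were -0.42 for H2-Bl and -0.38 for H2-Q2 A_51_P219789 (adjusted p = 0.220 each). Without the experiment as a block none of the 21 was called with miR-26a either, where 238 of all 20168 probes were called lower and 74 higher.

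Of these 21 probes, 17 are of genes with an H2 symbol (15 genes). With miR-26a 16 of the 17 changes were negative, with a median of -0.29, and 15 were lower at an unadjusted p under 0.05, against 46.7% negative and 12.8% lower at this p over all tested probes. With the sponge 15 of the 17 were negative, with a median of -0.26, and 10 were lower at an unadjusted p under 0.05, against 47.9% and 8.33% over all. In the direct comparison of the constructs 9 of the 17 were negative (46.6% over all) and the median was -0.02, though H2-Q8 (-0.85, adjusted p = 0.0124), H2-M3 (-0.38, adjusted p = 0.0384) and H2-T10 (-0.33, adjusted p = 0.0337) were lower with miR-26a. Hfe was 0.61 higher there (adjusted p = 0.0138). Under the 16 other settings of processing, 15 or 16 of the 17 were negative with miR-26a and 14 to 16 with the sponge. Settings that changed only the test, the block, the weights or the filter gave the same counts and medians as the main fit. So did leaving out an array of the group not compared, so these settings add no support. After 75th percentile scaling 16 were negative with miR-26a and 14 with the sponge, and after normexp 16 and 15. The direct comparison moved from 7 to 14 of 17, with 14 after 75th percentile scaling, so the H2 genes have no settled direction there. In 10 of the 17, experiment 2 lay more than 0.2 above experiment 1 in every group, as for H2-K1, H2-D1 and Tap1.

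**Figure D4:**
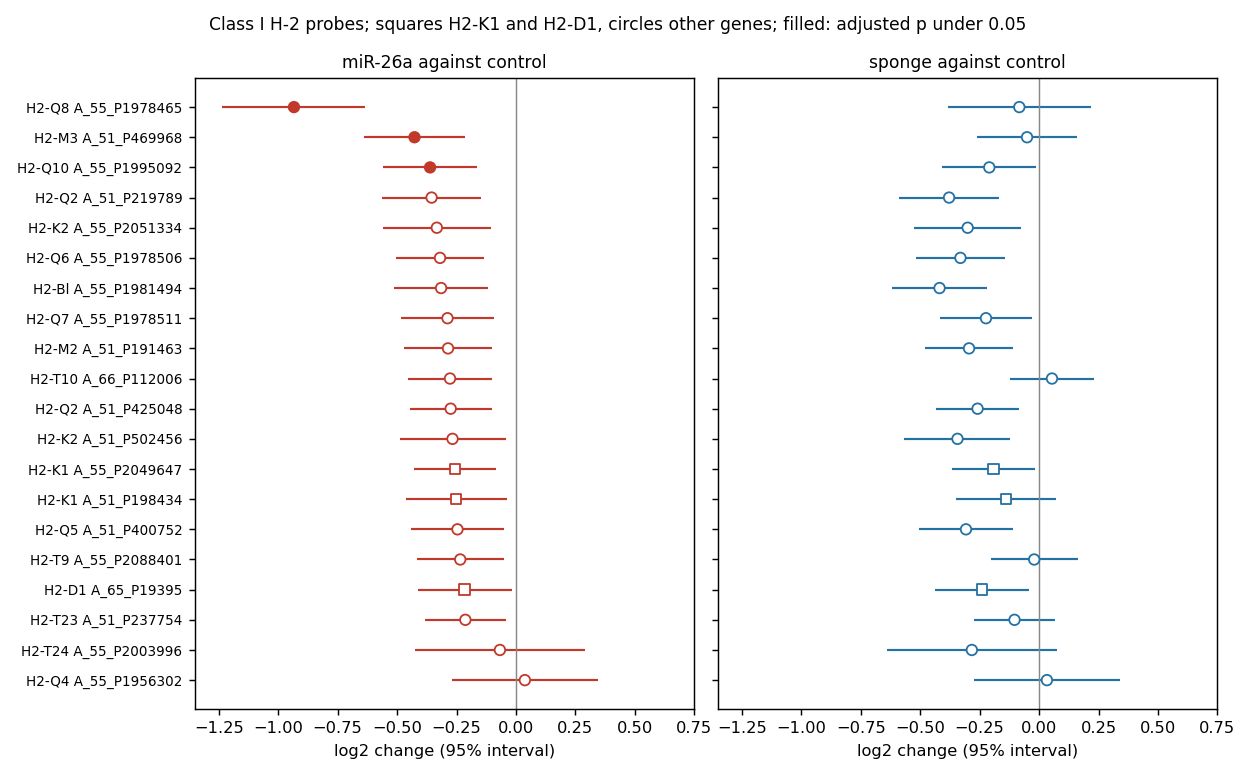
log2 change with 95% interval for the 3 probes of H2-K1 and H2-D1 (squares) and the 17 probes of other H2 genes (circles), with miR-26a on the left and the sponge on the right, each against control; filled symbols have an adjusted p under 0.05. H2-Q8, H2-M3 and H2-Q10 are filled on the left, none is on the right, and most other symbols lie between -0.42 and 0 on both sides.

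Class I genes are close relatives, so a probe of one may also bind transcripts of another, and these 20 probes are not separate measurements of 20 genes. The run of identical bases that a probe of the 17 has in common with a probe of H2-K1 or H2-D1 was 6 to 29 bases long. It was 20 or more for 1 of them, H2-T23 A_51_P237754 (Qa-1), which is printed here beside its H2-K1 partner with the 29 shared bases in capitals. At least 1 reading frame is open over all 60 bases of each, while the exon annotation was not used here.
H2-K1 A_55_P2049647: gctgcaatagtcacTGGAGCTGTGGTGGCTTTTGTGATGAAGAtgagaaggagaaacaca
H2-T23 A_51_P237754: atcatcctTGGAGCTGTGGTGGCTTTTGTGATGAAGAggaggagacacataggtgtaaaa
H2-T23 had a change of -0.21 with miR-26a (adjusted p = 0.119), close to the -0.26 of that H2-K1 probe. Runs in common between probes do not show which transcripts a probe binds. The longest run with a probe of another gene name was 14 bases for H2-K1 A_51_P198434 and 14 for H2-D1. For the Tap1 probe it was 13 bases, in capitals here.
Tap1 A_51_P100327: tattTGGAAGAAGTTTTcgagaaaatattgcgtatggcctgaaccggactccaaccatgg

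No probe of the other steps of peptide supply was called. The loading and trimming list, with chaperones such as Calr, Canx and Pdia3 and peptidases such as Erap1 and Npepps, had 11 tested probes of 10 genes, and limma called none in any of the 3 comparisons. At an unadjusted p under 0.05, 1 was lower and 4 were higher with miR-26a (12.8% and 14.5% over all probes), 0 and 1 with the sponge (8.33% and 7.65%), and 2 and 3 in the direct comparison (15.9% and 18.5%). The 4 are both probes of Npepps (0.25 and 0.24), Pdia3 and Hspa5 (0.25), and the medians of the list were 0.07 with miR-26a and 0.06 with the sponge. Its largest values were those of Lnpep, an endosomal aminopeptidase, at -0.68 in the direct comparison (adjusted p = 0.102) and -0.60 with miR-26a against control (adjusted p = 0.169), where the miR-26a array of experiment 2 was at 8.73 and the other 5 arrays were at 9.78 to 10.03. Pdia3, a disulfide isomerase of the loading complex, had 0.28 with miR-26a (adjusted p = 0.103) and 0.27 with the sponge (adjusted p = 0.249). Tapbpl, a tapasin relative, had -0.20 with the sponge (adjusted p = 0.347), and Npepps A_52_P479500 was 0.34 higher with miR-26a than with the sponge (adjusted p = 0.0575). The partners of the immunoproteasome in the constitutive proteasome and its activators had 25 tested probes of 19 genes, with none called and medians of 0.02 with miR-26a and 0.05 with the sponge. At an unadjusted p under 0.05, 1 of the 25 was lower with miR-26a, 1 was higher with the sponge, and 2 were lower and 1 higher in the direct comparison, shares below those over all probes (12.8% lower with miR-26a, 7.65% higher with the sponge, 15.9% and 18.5% directly). The largest values in this list were -0.32 for Psme2 A_55_P2025612 and 0.22 for Psme4 A_55_P1976007 with miR-26a, 0.20 for Psma7 and 0.19 for Psma4 A_65_P09443 with the sponge, and -0.23 for Psma1 and -0.22 for Psma3 A_55_P1952127 in the direct comparison.

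Among the regulators of class I genes, several fell with miR-26a, where Nlrc5 had values above the control. The list had 41 tested probes of 31 genes, of which 6 were called lower and 0 higher (background 5.12% and 4.6%), with a median of 0.00. Irf4, an interferon regulatory factor of B cells, fell from 11.45 and 11.69 to 10.24 and 10.51, a change of -1.19 (SE 0.089, adjusted p = 0.00467). Rfxank, a subunit of the RFX complex that binds MHC promoters together with Nlrc5 or Ciita, fell by 0.58 (SE 0.068, adjusted p = 0.0106). Ezh2, the histone methyltransferase of Polycomb complex PRC2, fell by 0.50 (adjusted p = 0.0207). Ifngr2, a chain of the interferon gamma receptor, fell by 0.46 (adjusted p = 0.0203). The NF-kappa-B genes Relb (A_55_P2168736) and Nfkb2 fell by 0.41 and 0.34 (adjusted p = 0.0395 and 0.0459). Without the experiment as a block none of the 6 was called, where 238 of all 20168 probes were called lower. Of the 3 Relb probes, A_51_P389751 had -0.38 (adjusted p = 0.0673) and A_55_P2168741 had -0.30 (adjusted p = 0.307).

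With the sponge limma called none of the 41 regulator probes (4 lower and 1 higher at an unadjusted p under 0.05, against 8.33% and 7.65% of all probes), and the largest values were -0.32 for Nfya and -0.27 for Relb A_55_P2168741. In the direct comparison 10 probes were called lower with miR-26a (8.55% of all) and 3 higher (8.22%). The lower ones were Irf4 (-1.06), Rfxank (-0.61), Ezh2 (-0.53), Relb at 2 probes (-0.50 and -0.44), Ifnar1 A_55_P2036337 (-0.49), Creb1 A_55_P2114427 (-0.47), Socs1 (-0.46), Ifngr2 (-0.40) and Suz12 (-0.29). The higher ones were Nfya, a subunit of the CCAAT-binding factor NF-Y (0.50), Rfx5 (0.32) and Nfkb1 A_55_P1968743 (0.31). Where a gene has other probes they were not called, and Creb1 A_52_P517730 lay on the other side of 0 (0.10). Without the block 4 probes of the list were called lower there and 0 higher, against 632 and 358 of all 20168 probes. No test linked any of these genes to Tap1 or the heavy chains.

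The tested genes that respond to interferon had no call against control. Their list had 22 genes, 21 of them on the array with 25 probes, and 14 probes of 12 genes passed the filter. The other genes were not tested. Of the 14 probes limma called none with miR-26a (1 lower and 2 higher at an unadjusted p under 0.05, against 12.8% and 14.5% of all probes). It called none with the sponge (2 lower and 2 higher, against 8.33% and 7.65%), and the medians were 0.03 and 0.04. With miR-26a the largest values were -0.23 for Dhx58 and 0.22 for Gbp3, and with the sponge -0.42 for Isg15 A_66_P128537 and 0.35 for Bst2. In the direct comparison both probes of Isg15, a ubiquitin-like protein induced by interferon, were higher with miR-26a, by 0.40 (adjusted p = 0.0275) and 0.32 (adjusted p = 0.0326), while the other 12 probes were not called (background 8.22%). Without the block neither Isg15 probe was called, where 358 of all 20168 probes were called higher.

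Some markers moved beside these results. Of the 15 tested pre-B marker probes 1 was called lower with miR-26a, that of Dntt, which adds bases at V(D)J joints (-1.12, adjusted p = 0.00538), and their median was -0.06. Of the 7 tested myeloid probes, Itgam A_55_P1977929 was called lower (-0.82, adjusted p = 0.00712) and Cd68 higher (0.33, adjusted p = 0.0398) with miR-26a. The other tested Itgam probe, the brighter A_55_P1977934, had 0.06 (adjusted p = 0.739). None of the 4 tested T and NK probes and the 1 tested dendritic probe was called, and with the sponge limma called no marker probe. At an unadjusted p under 0.05, 5 of the 27 tested marker probes were lower and 3 higher with miR-26a (12.8% and 14.5% over all probes), 5 and 0 with the sponge (8.33% and 7.65%), and 4 and 5 in the direct comparison (15.9% and 18.5%). In the direct comparison Dntt (-1.19) and 1 probe of Pax5 (-0.36) were lower and 1 probe of Ptprc was higher (0.38) with miR-26a. The summed signal of the myeloid markers was 56145 to 68035 in the control arrays, 58726 to 64603 with miR-26a and 54773 to 73098 with the sponge, so these ranges overlapped. Csf3r alone made up 92.2% to 93.7% of this sum, and without it the ranges were 3969 to 5024, 4311 to 5044 and 3464 to 4877 in the same order, which overlapped too. Their part in the class I values was not tested.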

How the data were processed

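RNA of the 1676 pre-B cell line was measured on 6 single-colour arrays, and groups and replicate numbers were taken from the labels. The authors deposited the scanner output of Agilent Feature Extraction (10.7.1.1 per the labels), with a mean intensity and a processed, background-corrected intensity for every spot, and a series table of quantile-normalized intensity values on a linear scale. Processed signals were quantile-normalized here, log2-transformed and averaged per probe, without control spots. A spot flagged as an outlier was left out unless every spot of its probe was flagged on that array. Flagged spots of probes with a single spot were therefore kept. A probe was tested if 1 or more arrays had it well above background and 4 or more had a signal above 50. The limma fit (version 3.58.1, R 4.3.3) took in the 6 arrays and a block for the experiment, because the methods normalize to the control of each experiment. Benjamini-Hochberg adjustment ran over 20168 probes. Same-numbered arrays deviated together from their group means (correlations across probes of 0.38, 0.59 and 0.45), which was taken as pairing. The titles of the control samples quote other accessions, so these arrays may come from an earlier series. All arrays share 1 slide, and the numbers coincide with its rows.

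The members and lists were chosen with earlier results of these data known. All member probes are named, and list genes with an adjusted p under 0.05 or, failing that, the largest 2 changes in size. Gene names and mm9 positions are those of the array design, and promoters and miRNAs are RefSeq's (GRCm38.p6). The fit was tested on simulated data. Alternatives were the fit without the block, an unpaired test and a test of the log ratios, 75th percentile scaling, normexp with an offset of 50, the authors' values, 3 filters, array weights, leaving out each array, and the study's limits on unadjusted p and change. Tables were assembled with pandas 2.3.3 and figures drawn with matplotlib 3.10.9. Protein sequences and exon annotation were not used here.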

Additional observations from a re-analysis of the deposited data

How the results depend on the processing

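The 39 changes of the 13 probes in 3 comparisons were recomputed under 16 alternatives each, 624 values in all. Of these, 583 kept direction and side of the threshold, 13 (all of Tap1 with miR-26a) lost the call, 28 changed sign and 0 gained a call. Settings that alter only the test, the block or the filter keep the size of each change. Leaving out an array of the group not compared keeps it too. Such settings can alter a call but not a sign, so the direction was fixed in advance for many of the 583. The 1 member call, Tap1 with miR-26a, went to 0 without the replicate block, with the unpaired test, with the test of the log ratios, after 75th percentile scaling, under the 3 other filters, at the study's limit read as a log2 change of -0.32, and with any 1 array left out (0 to 0). The unpaired test and the test of the log ratios called 0 of 20168 probes in each comparison and the fit with no filter 0 of 55681, so these 3 settings say nothing of Tap1 or the lists in particular. Without the block no other member call changed.

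Without the replicate block calls in the lists also went to 0, except for the regulators lower in the direct comparison, with 4 of 10. Calls fell over the whole array too. Of all 20168 probes, 238 were lower and 74 higher with miR-26a without the block, against 1033 and 927 with it. In the direct comparison 632 and 358 were called, against 1725 and 1657. With probes well above background on all arrays, the related genes had 0 lower and 0 higher with miR-26a and 1 lower in the direct comparison, the regulators 2 lower with miR-26a and 3 lower and 1 higher in the direct comparison, and Isg15 1 probe. Of all 24972 probes under this filter, 374 were lower and 191 higher with miR-26a, and 903 and 620 directly. Normexp gave 8 related probes lower with miR-26a and 1 for Isg15. Array weights gave 6 related probes lower with miR-26a and, in the direct comparison, 1 related lower, 1 regulator higher and 1 for Isg15. With 1 array left out, calls of related probes with miR-26a ran from 0 to 1 in either direction, and in the direct comparison from 0 to 1 lower and 0 to 2 higher. Those of regulators ran from 1 to 4 lower with miR-26a, and directly from 1 to 8 lower and 0 to 1 higher, and those of Isg15 from 0 to 0.

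After 75th percentile scaling the changes of sign were H2-D1 (direct, -0.039), Tap2 (sponge, 0.020) and Psmb10 (direct, -0.031), and after normexp B2m (sponge, -0.013) and Psmb9 A_55_P2038983 (sponge, 7.3e-05). With 1 array left out, the direct comparison ran from -0.069 to 0.12 for H2-D1, -0.049 to 0.014 for Tap1, -0.15 to 0.036 for Tapbp, -0.078 to 0.15 for Psmb10 and -0.14 to 0.26 for Psmb9 A_55_P2038983. With the sponge it ran from -0.051 to 0.072 for B2m, -0.20 to 0.053 for Tap2, -0.17 to 0.020 for Tapbp, -0.16 to 0.12 for Psmb9 A_55_P2038983, -0.087 to 0.14 for Psmb10 and -0.17 to 0.053 for Nlrc5 A_66_P113043. With miR-26a it ran from -0.042 to 0.20 for Tap2, -0.033 to 0.049 for Psmb9 A_51_P369803, -0.16 to 0.24 for its other probe and -0.046 to 0.16 for Psmb10.

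A fit that leaves out 1 array has a single array in that group, which is assumed to vary like the others. Psmb9 A_55_P2038983, the dimmest of the 13 probes, had the largest SE (0.121 with miR-26a).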
